A study of Mus musculus with 67 samples.

Results

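Retinal pigment epithelium (RPE) libraries labelled 1d (n = 4) were compared with RPE libraries labelled NB (n = 5), across all 16712 genes that could be tested. These 9 libraries belong to 33 RNA libraries of RPE and neural retina. Every one of them carries the genotype Abca4-/- Rdh8-/-, so the comparison is within mutant mice and holds no wild-type group. Each library holds RNA pooled from both eyes of 1 mouse. RPE cells were shaken off the opened eyecup into RNAprotect, after which the choroid was taken out, and stranded mRNA libraries were made. The 1d group is named only by its time of 1 day, no label says what NB stands for, and neither the event from which time counts nor the age or sex of the mice is given. RPE libraries at 6 hours (6h, n = 3) and 3 days (3d, n = 4) entered the same fit, and retina libraries (NB n = 6, 1d n = 4) were used to gauge retinal RNA in the RPE samples.

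The RPE is the pigmented epithelial sheet behind the photoreceptors. It turns the retinoid released by bleached rods and cones back into the 11-cis form, takes up shed outer segment tips, and moves ions, water, glucose and lactate between the choroid and the retina. Abca4 and Rdh8 code for photoreceptor proteins that clear all-trans-retinal, and mice lacking both are used as a model of retinoid-driven damage to the retina and RPE. Cells under stress often switch on secreted acute phase genes through receptors of the interleukin-6 family, which share the gp130 subunit and signal through the transcription factor STAT3.

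The libraries held 11457222 to 14400300 recovered reads, apart from 1 NB library (NB A1, 23132398) that belonged to a deeper set with the 6h libraries. Of the genes named in the genotype, Abca4 read 276, 255, 244, 212 and 214 CPM (read counts scaled to library size) in the NB libraries (in the order A1, B1 to B4, kept throughout) and 219, 228, 170.2 and 153 CPM in the 1d libraries (in the order 1 to 4). Rdh8 read 2.62, 4.01, 2.43, 2.79 and 2.46 CPM in NB and 4.18, 5.37, 5.09 and 3.57 CPM at 1d. Neither difference passed the test (adjusted p = 0.172 and 0.189), and reads over a whole gene check nothing about its deletion. RPE transcripts were abundant in both groups, with Rgr, Ttr and Rlbp1 at 569 CPM or more in every library, although Best1, a textbook RPE channel gene, averaged 1.65 ± 0.492 CPM in NB and 2.00 ± 0.595 CPM at 1d.

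RNA of other tissues was present in every library. The 11 surface epithelium genes, among them the keratins Krt5, Krt14 and the corneal Krt12, made up 2.07% to 5.01% of all CPM in NB and 3.35% to 5.89% at 1d, highest in NB B3 and 1d 4. None of the 11 passed limma's test, in which 1 had an unadjusted p under 0.05; edgeR and DESeq2 also called 0. Krt12 read 513, 3482, 1468, 4034 and 1279 CPM in NB and 5452, 6487, 2858 and 16516 CPM at 1d (adjusted p = 0.0838). The 8 lens genes summed to 1987 to 7860 CPM in NB and 783 to 8953 CPM at 1d, highest in NB B2 and 1d 2. Gfap, a glial filament gene, was high in 1 NB library, NB B4, where it reached 48.9 CPM. The part of these tissues in the results below was not tested beyond the fits given beside them.

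Rod transcripts were the measure of neural retina carried into the RPE samples. The 23 rod genes summed to 5747 to 8952 CPM in NB and to 4719 to 12115 CPM at 1d, so the groups overlapped. In retina the same sum averaged 88593 CPM in NB and 37985 CPM at 1d. Set against the retina of the same time, the rod sum of an RPE library was therefore 6.49% to 10.1% in NB and 31.9%, 27.98%, 17.9% and 12.4% in 1d 1 to 4. These ratios, times a gene's mean CPM in retina, give the level that retinal RNA could bring to an RPE library, called the retina-derived estimate here; the 2 tissues' tables were normalized separately. The estimate follows rods, and other lists gave other ratios. Over 12 bipolar cell genes the summed level was 45.9% of that in retina in NB and 37.97% at 1d, and over amacrine, horizontal and ganglion cell genes 35.4% and 28.8%, both lower at 1d where the rod ratio was higher. The median over single genes of the bipolar list was 4.99% in NB and 7.44% at 1d, below the rod ratio. The sum of that list thus rested on part of its genes, whose source in the RPE samples was not tested.

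**Figure D1:**
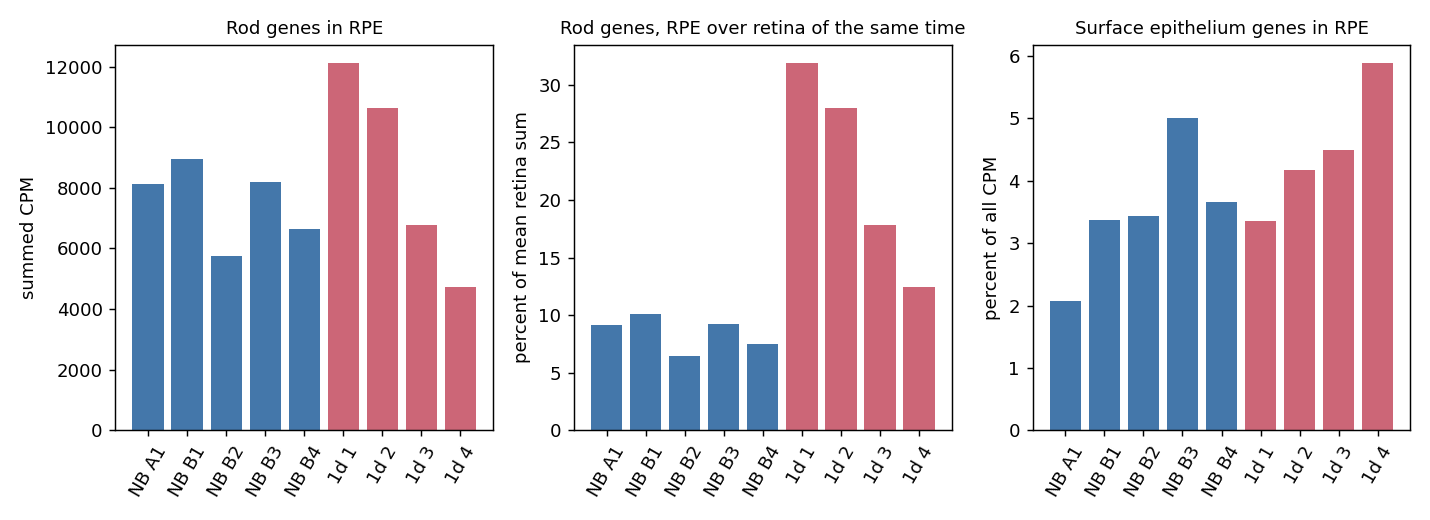
Bars show, for each of the 5 NB (blue) and 4 1d (red) RPE libraries, the summed CPM of 23 rod genes, that sum as a percent of the mean retina sum of the same time, and the summed share of 11 surface epithelium genes in all CPM. The rod sum overlaps between groups, the ratio to retina is 6.49% to 10.1% in NB and 12.4% to 31.9% at 1d, and NB B3 and 1d 4 hold the largest surface epithelium share of their groups.

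At 1d 937 of 16712 genes differed from NB at an adjusted p under 0.05 (5.61% of the genes tested). Of these 296 were higher (1.77%) and 641 lower (3.84%), and 137 and 233 of them changed by 2-fold or more. All 1d libraries lay above all NB libraries for 524 genes (3.14%) and below them for 880 (5.27%). The median log2 fold change over all genes was 0.003. The counts moved with single libraries: without 1d 1 they were 153 higher and 499 lower, without 1d 4 260 and 392, without NB B2 198 and 420, and without NB B3 435 and 991. Without both NB B3 and 1d 4, the pair richest in surface epithelium, 265 were higher and 581 lower, and with the surface epithelium sum as a covariate 454 and 828. Without NB A1 224 were higher and 437 lower, in a fit that still held the deeper 6h libraries. With only the NB and 1d libraries of the same depth set in the fit, 144 were higher and 308 lower. By edgeR's quasi-likelihood test on the recovered reads of the NB and 1d libraries alone the counts were 179 and 340. Limma on the NB and 1d libraries alone gave 168 and 369.

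Serpina3n, which codes for a secreted serine protease inhibitor, stood at 382, 303, 309, 224 and 353 CPM in NB and at 6163, 3679, 2783 and 6138 CPM at 1d (log2 fold change 3.84 ± 0.25, adjusted p = 8.59e-07). The groups were an order of magnitude apart, and the highest 1d values were in libraries 1 and 4, which hold the most and the least rod RNA. Library 4 also held the largest surface epithelium share of its group, and the source of the Serpina3n RNA was not tested. A2m, the broad protease trap alpha-2-macroglobulin, read 280.2, 269.8, 276, 180.2 and 227 CPM in NB and 1786, 1514, 986 and 1815 CPM at 1d (log2 fold change 2.60 ± 0.21, adjusted p = 4.38e-06). Chil1, a secreted chitinase-like glycoprotein, rose, with 109.5 ± 26.9 CPM in NB and 1089.6 ± 342 CPM at 1d (log2 fold change 3.29 ± 0.24, adjusted p = 1.67e-06). Their retina-derived estimates at 1d were 1.89%, 3.32% and 2.58% of the RPE level. All 3 genes also rose in retina, where Serpina3n stood at 7.09 ± 2.98 CPM in NB and 392 ± 79.6 CPM at 1d. Serpina3n sits in a cluster of close paralogs and the authors' read counter is not given in the sources used here, so reads shared with them are uncertain.

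Other genes had low levels in NB. Serpine3, a further member of the serpin family, read 2.38, 3.13, 3.22, 4.58 and 4.22 CPM in NB and 84.0, 93.1, 48.2 and 90.8 CPM at 1d (log2 fold change 4.29 ± 0.32, adjusted p = 1.67e-06), the largest fold change among the genes under the retina limit of 25%. Lalba, which codes for the milk protein alpha-lactalbumin, read 1.31, 1.46, 1.49, 1.09 and 1.84 CPM in NB and 22.3, 17.5, 16.1 and 24.6 CPM at 1d (log2 fold change 3.404 ± 0.21, adjusted p = 8.25e-07) and was not among the genes of the retina table. Its place under the limit of 25% therefore rests on no retina value. In both genes the 4 libraries at 1d lay far above all 5 of NB. Lcn2, whose product binds bacterial siderophores, rose, with 3.70 ± 2.16 CPM in NB and 37.4 ± 15.4 CPM at 1d (log2 fold change 3.25 ± 0.36, adjusted p = 5.3e-05). Timp1, an inhibitor of matrix metalloproteinases, rose, with 2.92 ± 0.823 CPM in NB and 21.5 ± 7.06 CPM at 1d (log2 fold change 2.67 ± 0.28, adjusted p = 3.34e-05), and the metalloproteinase Mmp3 rose, with 1.17 ± 0.312 CPM in NB and 11.1 ± 7.82 CPM at 1d (log2 fold change 2.52 ± 0.38, adjusted p = 0.000821). For Mmp3 the 1d libraries split, with 19.4, 4.82, 4.01 and 16.1 CPM, against 0.844 to 1.65 CPM in NB. Npl, a lyase that breaks down sialic acid, rose, with 6.75 ± 2.31 CPM in NB and 41.7 ± 10.3 CPM at 1d (log2 fold change 2.56 ± 0.22, adjusted p = 7.26e-06) with no passing change in retina (log2 fold change 0.33). Glycam1, a mucin-like protein gene, read 12.9, 12.2, 13.2 and 2.22 CPM at 1d and at most 1.46 CPM in NB (log2 fold change 2.76 ± 0.41, adjusted p = 0.000821).

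**Figure D2:**
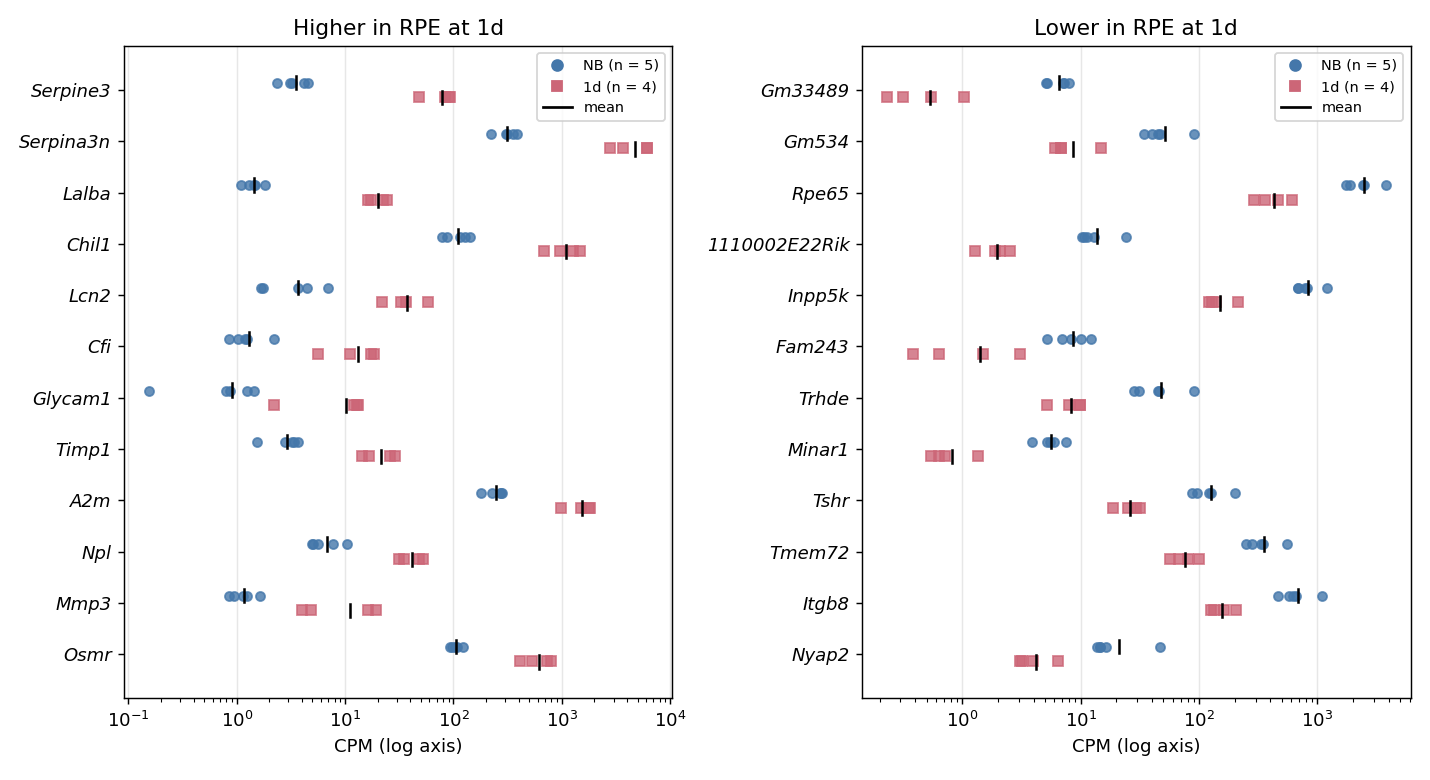
CPM on a log axis of the 12 genes with the largest rise (left) and the 12 with the largest fall (right) among called genes that met the limits on overlap, level and retina-derived estimate; blue circles are the 5 NB libraries, red squares the 4 1d libraries and black ticks group means. Groups do not overlap in any of the 24 genes, which the choice of genes required, and Nyap2 and Trhde show 1 NB library (46.6 and 90.4 CPM) well above the others.

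The gp130 family was measured by role. Of 6 ligand genes only Lif could be tested; it read 2.25 to 3.45 CPM in NB and 2.28 to 4.01 CPM at 1d. Among 10 receptor and transducer genes 3 rose and 7 did not pass. Osmr, the oncostatin M receptor subunit that pairs with gp130, read 122, 97.6, 93.7, 109 and 104 CPM in NB and 726, 526, 410.1 and 798 CPM at 1d (log2 fold change 2.50 ± 0.18, adjusted p = 1.67e-06), with no overlap and an estimate of 3.69%. Stat3 rose, with 156 ± 20.9 CPM in NB and 243 ± 31.3 CPM at 1d (log2 fold change 0.64 ± 0.11, adjusted p = 0.00226; estimate 35.3%). Cntfr, the ciliary neurotrophic factor receptor gene, rose, with 6.03 ± 1.62 CPM in NB and 11.3 ± 4.04 CPM at 1d (log2 fold change 0.84 ± 0.21, adjusted p = 0.0264; estimate 75.6%), a call lost without 1d 1, 1d 2, NB B1 or NB B2 (adjusted p up to 0.0832) and reversed when the estimate was subtracted (log2 fold change -0.17). The shared subunit gene Il6st read 146 CPM in NB and 161 CPM at 1d (adjusted p = 0.535), Lifr 102 CPM in NB and 97.5 CPM at 1d (adjusted p = 0.916) and Jak1 104 CPM in NB and 114 CPM at 1d (adjusted p = 0.562).

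Of 8 genes known as STAT3 targets or feedback genes 3 rose and 5 did not pass. Socs3, the main feedback inhibitor of gp130 signalling, read 4.84, 9.69, 10.1, 6.13 and 9.21 CPM in NB and 48.3, 37.0, 34.9 and 36.2 CPM at 1d (log2 fold change 2.26 ± 0.21, adjusted p = 1.51e-05). Cebpd, a transcription factor of the acute phase response, read 8.24, 15.95, 10.2, 9.16 and 17.4 CPM in NB and 55.5, 39.2, 50.3 and 65.7 CPM at 1d (log2 fold change 2.10 ± 0.22, adjusted p = 3.84e-05). Both groups of libraries were fully separated, while the estimates were 39.6% and 36.4%, with log2 fold changes in retina of 4.20 and 4.29. Cebpb, its close relative, rose, with 7.60 ± 1.33 CPM in NB and 14.2 ± 3.204 CPM at 1d (log2 fold change 0.86 ± 0.16, adjusted p = 0.00517; estimate 10.6%). Bcl3 read 14.5 CPM in NB and 23.7 CPM at 1d (adjusted p = 0.143) and Socs1 2.68 CPM in NB and 2.98 CPM at 1d (adjusted p = 0.781). The 3 calls held in each fit that left out 1 library. After subtraction of the estimate 3 of the 8 still passed.

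Promoter sequences are shown for the genes on which these results turn, Serpina3n, Osmr, Socs3 and the retinoid cycle gene with the largest fall, Rpe65, so that short motifs can be read beside the levels. Each is the window from 250 bases before to 50 bases after the annotated start (RefSeq, GRCm38.p6, the authors' genome being GRCm38), 5′ to 3′ on the gene's strand. Capitals mark matches to any of 4 motifs searched on both strands: TTCNNNGAA (STAT dimers), the interferon response element (known as ISRE), TGANTCA (AP-1) and TAATCC (OTX and CRX factors).
Serpina3n, chr12:104406458-104406757, plus strand: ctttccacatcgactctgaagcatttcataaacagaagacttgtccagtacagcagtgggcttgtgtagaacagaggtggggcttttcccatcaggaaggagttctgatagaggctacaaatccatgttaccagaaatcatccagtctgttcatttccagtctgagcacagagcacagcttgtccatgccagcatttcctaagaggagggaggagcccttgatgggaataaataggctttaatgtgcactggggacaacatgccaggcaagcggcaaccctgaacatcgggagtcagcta
Osmr, chr15:6874264-6874563, minus strand: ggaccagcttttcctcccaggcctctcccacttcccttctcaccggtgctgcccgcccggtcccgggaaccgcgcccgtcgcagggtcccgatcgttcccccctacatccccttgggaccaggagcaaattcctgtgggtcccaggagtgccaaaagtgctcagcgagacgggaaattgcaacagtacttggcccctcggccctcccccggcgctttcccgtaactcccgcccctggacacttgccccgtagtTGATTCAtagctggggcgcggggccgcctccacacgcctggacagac
Socs3, chr11:117969317-117969616, minus strand: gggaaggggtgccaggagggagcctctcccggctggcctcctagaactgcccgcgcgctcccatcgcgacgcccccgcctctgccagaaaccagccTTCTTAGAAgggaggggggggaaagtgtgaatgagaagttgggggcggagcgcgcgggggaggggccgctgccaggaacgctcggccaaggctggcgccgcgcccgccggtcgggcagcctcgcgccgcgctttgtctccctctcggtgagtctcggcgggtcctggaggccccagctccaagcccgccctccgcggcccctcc
Rpe65, chr3:159598931-159599230, plus strand: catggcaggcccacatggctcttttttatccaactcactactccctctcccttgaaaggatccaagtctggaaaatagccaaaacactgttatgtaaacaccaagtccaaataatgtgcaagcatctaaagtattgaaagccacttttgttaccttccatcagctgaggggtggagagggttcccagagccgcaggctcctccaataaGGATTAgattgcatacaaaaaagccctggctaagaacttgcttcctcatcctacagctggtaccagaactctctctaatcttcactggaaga
Socs3 held a TTCNNNGAA match that began 154 bases upstream of the start, and Rpe65 a TAATCC match on the other strand, 42 bases upstream. The Osmr window held a TGANTCA match just past its start, and the Serpina3n window held no match. Over all 32851 promoter windows 8.30% held TTCNNNGAA, 3.44% the interferon element, 7.81% TGANTCA and 7.06% TAATCC. Of the genes tested 11665 had a window by symbol; TTCNNNGAA stood in 965 of these (8.27%), in 30 of 210 genes higher at 1d (14.3%), in 9 of the 78 of these with a retina-derived estimate under 25% (11.5%) and in 43 of 453 lower (9.49%). TAATCC stood in 849 of the 11665 (7.28%), 14 of 210 higher (6.67%) and 41 of 453 lower (9.05%). A match describes letters and is not evidence of binding.

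Complement genes moved in both directions. Of 17 tested, 3 rose, 1 fell and 13 did not pass. C4b, the fourth component of the cascade, read 34.1, 49.0, 47.9, 21.8 and 85.7 CPM in NB and 238, 193, 263 and 174 CPM at 1d (log2 fold change 2.30 ± 0.30, adjusted p = 0.000238; estimate 6.41%). C3, the central component, rose, with 6.78 ± 1.83 CPM in NB and 18.5 ± 6.78 CPM at 1d (log2 fold change 1.35 ± 0.26, adjusted p = 0.00609), and Cfi, the protease that cleaves active C3b, rose, with 1.31 ± 0.536 CPM in NB and 13.1 ± 5.93 CPM at 1d (log2 fold change 2.83 ± 0.33, adjusted p = 7.94e-05). The calls of C4b, C3 and Cfi held without each library in turn. C4b has a close paralog, with the same limit on shared reads as Serpina3n.

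Lipid and stress genes gave a few rises within lists that mostly did not pass the threshold. Over all genes tested 5.61% were called. Plin2, the coat protein of lipid droplets, read 70.8, 61.8, 63.4, 51.9 and 53.9 CPM in NB and 273, 189, 165 and 263 CPM at 1d (log2 fold change 1.85 ± 0.16, adjusted p = 6.49e-06; estimate 2.32%). Angptl4, an inhibitor of lipoprotein lipase, rose, with 12.1 ± 2.32 CPM in NB and 36.2 ± 13.2 CPM at 1d (log2 fold change 1.49 ± 0.22, adjusted p = 0.00084). Hmox1, which degrades haem, rose, with 18.1 ± 3.11 CPM in NB and 35.3 ± 7.22 CPM at 1d (log2 fold change 0.93 ± 0.16, adjusted p = 0.00239), whereas Nqo1, another NRF2 target, read 114, 112, 108, 97.9 and 88.3 CPM in NB and 45.5, 53.9, 49.8 and 47.6 CPM at 1d and so fell (log2 fold change -1.07 ± 0.11, adjusted p = 3.57e-05). Of the 20 NRF2 genes 1 rose, 2 fell (Nqo1 and Cat) and 17 did not pass; the call of Cat was lost without 1d 3 (adjusted p = 0.0553). Tnfrsf1a, the main receptor of tumour necrosis factor, was the 1 gene of 24 cell death genes to pass (log2 fold change 0.58 ± 0.13, adjusted p = 0.0133), near the share over all genes. Its limma adjusted p rose to as much as 0.0487 in the fits that left out 1 library. EdgeR called 0 of the cell death genes and DESeq2 1 higher. Of 21 genes of the unfolded protein and integrated stress responses Sdf2l1 (log2 fold change 0.70 ± 0.16) and Manf (0.53 ± 0.12) rose, calls lost without 1d 4 (adjusted p = 0.0583 and 0.0544) and, for Manf, without 1d 1 (0.0689). EdgeR called 1 of these 21 genes higher and DESeq2 3.

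Many of the rises could not be told from RNA of the retina by level. Among the 296 higher genes the retina-derived estimate was under 25% of the RPE mean at 1d for 123 and at least 100% for 66. Among all genes tested those numbers were 8131 and 1947. A gene absent from the retina values counts as under 25% without any retina level behind it. Of the 296 higher genes 273 had a retina test, as did 15105 of all genes. Prss56, a protease gene of Müller glia, read 0, 0, 0, 0.0776 and 0.230 CPM in NB and 26.2, 11.02, 5.40 and 4.76 CPM at 1d (log2 fold change 4.15 ± 0.39, adjusted p = 1.53e-05), in the order of the rod sums, with an estimate of 679%. Gnb3, the transducin subunit of cones and ON bipolar cells, read 18.5, 20.4, 13.2, 16.9 and 20.9 CPM in NB and 237, 212, 101 and 104 CPM at 1d (log2 fold change 3.06 ± 0.29, adjusted p = 1.53e-05; estimate 132%). Crym (estimate 310.1%), Edn2 (204%) and Prph (55.6%) also rose, with log2 fold changes of 3.18, 2.89 and 2.84. Their part as retinal RNA was not tested. After subtraction of the estimate Crym and Gnb3 were at 0 in these libraries, and Prss56 and Edn2 had log2 fold changes of -0.014 and -0.75.

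Marker lists of retinal cells were read against the same estimate. Of 23 rod genes Rbp3 (1.00) and Aipl1 (1.11) rose on the log2 scale and 21 did not pass. Both calls were lost without 1d 1, 1d 2, NB B2 or NB B4 (adjusted p up to 0.103 and 0.0829), and both estimates were above 100%. The estimate is built from the sum of these same rod genes and equals it by construction, so it cannot test the source of rod RNA. Of 11 cone genes 4 rose, with Gnb3, Pde6c (log2 fold change 1.47), Cnga3 (1.51) and Pde6h (1.07), all with estimates above 100%; the call of Pde6h was lost in 7 of the 9 fits that left out 1 library (adjusted p up to 0.137). Of 19 genes of glial reactivity 7 rose, and 4 of them (Serpina3n, A2m, Lcn2 and Timp1) had estimates under 25%. Gfap, the filament gene of reactive glia, read 7.46, 2.91, 5.80, 3.34 and 48.9 CPM in NB and 86.1, 69.4, 31.2 and 33.6 CPM at 1d (log2 fold change 2.66 ± 0.63, adjusted p = 0.02; estimate 216%); NB B4 lay inside the 1d range, the call was lost without 1d 1, 1d 2, NB B1 or NB B2 (adjusted p up to 0.066), and subtraction gave a log2 fold change of -2.84. By contrast Grik1, listed as a bipolar gene, fell, with 43.4 ± 18.7 CPM in NB and 15.4 ± 8.11 CPM at 1d (log2 fold change -1.50 ± 0.29, adjusted p = 0.00592), with an estimate of 322% of its 1d level, so the estimate was above what was measured.

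**Figure D3:**
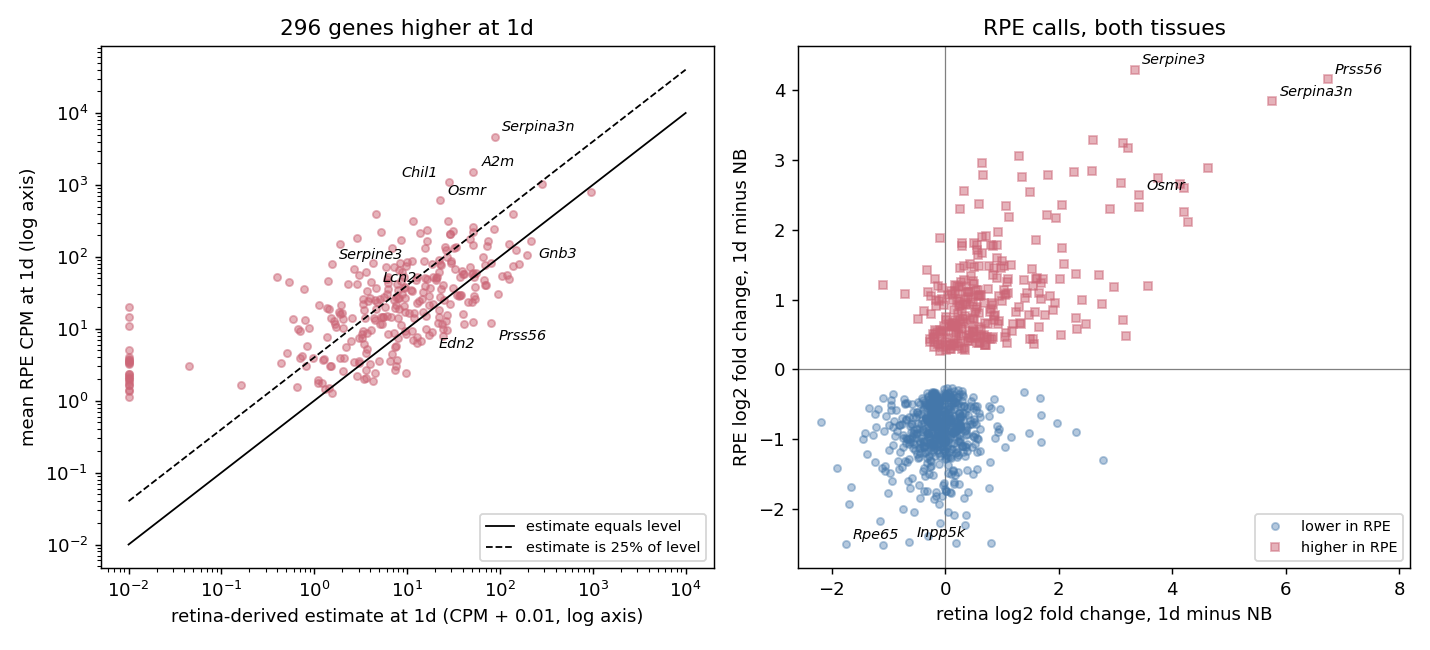
Left, mean RPE CPM at 1d against the retina-derived estimate for the 296 genes higher at 1d (log axes, 0.01 added to the estimate), with lines where the estimate equals the level and where it is 25% of it. Right, log2 fold change in RPE against that in retina for the genes called in RPE. Serpina3n, A2m, Chil1, Osmr and Serpine3 lie above the 25% line, and Prss56, Edn2 and Gnb3 lie below the line of equality.

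Fold changes in the retina of the same times were set beside the RPE calls. Of the 273 higher RPE genes with a retina test 206 were called higher in retina and 18 lower, where 3871 and 4163 of all 15105 shared genes were (24% and 27.5% of the retina genes tested were called higher and lower). Of the 566 lower RPE genes 105 were higher and 195 lower in retina. Of the lower genes 611 of 641 had an estimate under 25% of their NB level, against 13562 of all 16712 genes. Both numbers include genes without a retina value.

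The retinoid cycle fell together. Of its 11 genes 8 fell and 3 did not pass, with a median log2 fold change of -1.03. In retina 6 of the 11 were called lower and 2 higher, where 27.5% and 24% of all retina genes tested were. Rpe65, the isomerase that makes 11-cis-retinol, read 3763, 2431, 2486, 1879 and 1752 CPM in NB and 461, 613, 293 and 359.7 CPM at 1d (log2 fold change -2.51 ± 0.27, adjusted p = 4.3e-05). The highest 1d library was at 613 CPM and the lowest NB library at 1752 CPM. Rlbp1, the carrier of 11-cis retinoids, read 2386, 1869, 1832, 1344 and 1445 CPM in NB and 775, 915, 569 and 828 CPM at 1d (log2 fold change -1.19 ± 0.22, adjusted p = 0.00344). Rdh10, an all-trans-retinol dehydrogenase, fell, with 809.8 ± 193 CPM in NB and 357 ± 55.9 CPM at 1d (log2 fold change -1.17 ± 0.20, adjusted p = 0.00226), and Rrh, the RPE opsin peropsin, fell, with 289 ± 71.9 CPM in NB and 126 ± 24.9 CPM at 1d (log2 fold change -1.18 ± 0.21, adjusted p = 0.00246). Stra6, the receptor for circulating retinol-binding protein, had a log2 fold change of -1.07 ± 0.22 and Rdh11 of -0.77 ± 0.14. Lrat, which makes the ester that Rpe65 uses, fell, with 599 ± 204 CPM in NB and 289 ± 72.0 CPM at 1d (log2 fold change -1.03 ± 0.27, adjusted p = 0.0324), a call lost in 6 of the 9 fits that left out 1 library (adjusted p up to 0.0809), NB A1 among them.

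The other 3 members did not pass. Rdh5, the 11-cis-retinol dehydrogenase, read 1373, 1356, 1326, 866 and 993 CPM in NB and 768, 907, 517 and 872 CPM at 1d (log2 fold change -0.63 ± 0.23, adjusted p = 0.116). Rgr, a retinal-binding opsin and the most abundant gene of the list, read 8139.6, 5657, 5759.9, 4216 and 4498 CPM in NB and 4155, 3943, 2448 and 4051 CPM at 1d, with no overlap but an adjusted p of 0.221. Dhrs3 read 164 CPM in NB and 155 CPM at 1d (adjusted p = 0.678). Leaving out each library in turn gave 7 or 8 genes lower, the median was -1.14 without NB B3 and 1d 4, and with the surface epithelium covariate 8 were lower with a median of -0.79. In bulk RNA fewer RPE cells and less RNA per cell cannot be told apart, which holds for each fall of an RPE gene here.

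**Figure D4:**
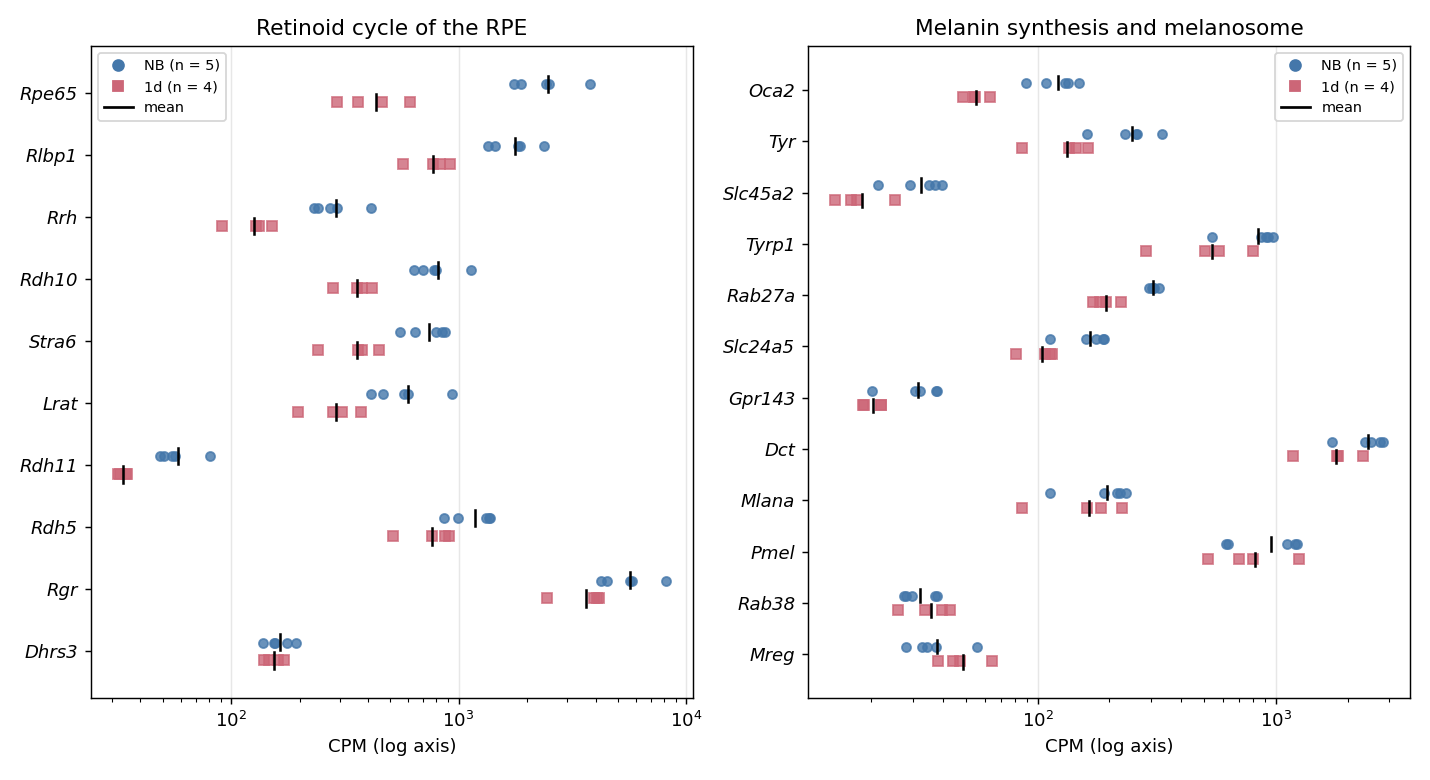
CPM on a log axis of 10 of the 11 retinoid cycle genes (left) and 12 genes of melanin synthesis and melanosomes (right), ordered by fold change; blue circles are the 5 NB libraries, red squares the 4 1d libraries and black ticks group means. Rpe65 shows the widest gap, Dhrs3 overlaps fully, and Rab38 and Mreg have 1d means above the NB means.

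Pigment genes fell in part. Of 12 genes 5 fell and 7 did not pass, with a median log2 fold change of -0.63. EdgeR called 2 of them lower and DESeq2 6. Oca2, a melanosomal transport protein, read 148, 130.1, 134, 88.8 and 108 CPM in NB and 53.7, 63.1, 54.3 and 48.7 CPM at 1d (log2 fold change -1.12 ± 0.17, adjusted p = 0.000821), and Rab27a, which tethers melanosomes, read 306, 293, 322, 302 and 306 CPM in NB and 182, 194, 225 and 171 CPM at 1d (log2 fold change -0.67 ± 0.11, adjusted p = 0.00114). These 2 were the only members without overlap. Tyr, the rate-limiting enzyme of melanin synthesis, fell, with 249 ± 61.8 CPM in NB and 132 ± 32.7 CPM at 1d (log2 fold change -0.91 ± 0.23, adjusted p = 0.0285), Slc45a2 had a log2 fold change of -0.81 ± 0.19 and Slc24a5 of -0.66 ± 0.18. The calls of Tyr, Slc45a2 and Slc24a5 were lost in 6, 3 and 8 of the 9 fits that left out 1 library (adjusted p up to 0.092, 0.0614 and 0.131), and the list's count was 2 without 1d 2, 1d 4 or NB B2, 3 without NB A1, NB B1 or NB B4, and 7 without NB B3. Dct read 2435 CPM in NB and 1784 CPM at 1d (adjusted p = 0.288) and Pmel 957 CPM in NB and 817 CPM at 1d (adjusted p = 0.674), both with overlap.

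The set of RPE identity genes was split. Of 22 genes 7 fell, 1 rose and 14 did not pass, with a median log2 fold change of -0.54. Enpp2, the secreted lysophospholipase D autotaxin, read 2689, 1949, 1890.0, 1420.3 and 1525 CPM in NB and 573, 614, 445 and 548 CPM at 1d (log2 fold change -1.77 ± 0.20, adjusted p = 7.22e-05). Slc4a5, a bicarbonate cotransporter, fell, with 873 ± 156 CPM in NB and 405 ± 92.3 CPM at 1d (log2 fold change -1.12 ± 0.21, adjusted p = 0.00463), Kcnj13, the apical potassium channel gene, fell, with 216 ± 50.2 CPM in NB and 109 ± 15.8 CPM at 1d (log2 fold change -0.96 ± 0.20, adjusted p = 0.00956), and Clic6 and Crim1 had log2 fold changes of -0.92 ± 0.19 and -0.89 ± 0.20. Otx2, a transcription factor of RPE and photoreceptors, fell, with 276 ± 76.1 CPM in NB and 147 ± 23.2 CPM at 1d (log2 fold change -0.88 ± 0.20, adjusted p = 0.0167), a call lost without 1d 4 (adjusted p = 0.0509), and Mitf fell, with 53.8 ± 16.3 CPM in NB and 29.6 ± 9.48 CPM at 1d (log2 fold change -0.87 ± 0.24, adjusted p = 0.0474), a call lost in 7 of 9 such fits (adjusted p up to 0.138). Cdh3, the P-cadherin of the RPE, rose: it read 82.5, 77.9, 86.7, 82.8 and 96.0 CPM in NB and 131, 142, 126 and 196 CPM at 1d (log2 fold change 0.78 ± 0.15, adjusted p = 0.00464). Cdh3 is also a cadherin of surface epithelia, and its highest value was in 1d 4. Ttr, the transthyretin gene, read 9281, 8174, 7996, 6024 and 6588 CPM in NB and 4469, 5074, 2537 and 4387 CPM at 1d, with no overlap and an adjusted p of 0.102. Ezr, Sox9 and Slc6a20a overlapped between groups (log2 fold changes -0.13, -0.10 and -0.37; adjusted p = 0.623, 0.699 and 0.314). Without 1d 4 the number of falling genes was 5 and without NB B3 10.

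Transport genes fell in 4 of 15 cases, and 11 did not pass. They were Slc16a1, a lactate carrier (438 ± 109 CPM in NB and 203 ± 25.9 CPM at 1d; log2 fold change -1.08 ± 0.19, adjusted p = 0.00246), the carbonic anhydrases Car14 (log2 fold change -1.11 ± 0.20) and Car12 (-0.97 ± 0.17), and the glucose transporter Slc2a1 (-0.75 ± 0.18). The call of Slc2a1 was lost without 1d 3, 1d 4, NB B1 or NB B2 (adjusted p up to 0.0799). In the list of outer segment uptake and lysosome genes 1 rose, 2 fell and 24 did not pass. EdgeR called 0 of this list higher and 1 lower, and DESeq2 3 and 3. Mertk, the receptor that triggers ingestion of outer segments, read 115, 63.6, 70.6, 48.8 and 56.3 CPM in NB and 31.9, 31.9, 26.6 and 33.9 CPM at 1d (log2 fold change -1.12 ± 0.22, adjusted p = 0.00551). Pros1, a ligand of Mertk, rose, with 9.53 ± 2.72 CPM in NB and 18.9 ± 5.96 CPM at 1d (log2 fold change 0.95 ± 0.24, adjusted p = 0.0257; estimate 43.1%), a call lost without 1d 1, 1d 3 or NB B2 (adjusted p up to 0.0863). Myo7a, a myosin of melanosome and phagosome movement, fell with a log2 fold change of -0.74 ± 0.20, lost in 7 of 9 such fits (adjusted p up to 0.11). Cldn1 was the 1 gene of 16 junction and keratin genes to pass (186 ± 66.8 CPM in NB and 86.8 ± 9.12 CPM at 1d; log2 fold change -1.04 ± 0.20, adjusted p = 0.0047).

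Outside the gene lists the largest falls were of receptors, enzymes and genes of unknown role. Inpp5k, a phosphoinositide phosphatase, read 1211, 788, 809, 687 and 686 CPM in NB and 121, 214, 128 and 139 CPM at 1d (log2 fold change -2.48 ± 0.21, adjusted p = 5.82e-06). Itgb8, the integrin subunit that activates latent TGF-beta, read 1096, 664, 625, 466 and 571 CPM in NB and 161, 207, 125 and 134 CPM at 1d (log2 fold change -2.09 ± 0.25, adjusted p = 0.000105). Tmem72, a membrane protein of unknown role, fell, with 352 ± 120.3 CPM in NB and 76.3 ± 18.4 CPM at 1d (log2 fold change -2.17 ± 0.23, adjusted p = 3.84e-05). In these genes NB A1 was the highest library, and each call held without it. Tshr, the receptor for thyroid-stimulating hormone, read 199.8, 121, 125, 87.7 and 95.8 CPM in NB and 29.0, 31.6, 18.9 and 25.3 CPM at 1d (log2 fold change -2.20 ± 0.23, adjusted p = 3.84e-05), and Trhde, the ectoenzyme that degrades thyrotropin-releasing hormone, fell, with 48.1 ± 24.9 CPM in NB and 8.24 ± 2.25 CPM at 1d (log2 fold change -2.39 ± 0.32, adjusted p = 0.00034). Minar1, Nyap2, Gm534, Gm33489, 1110002E22Rik and Fam243 had log2 fold changes of -2.23, -2.09, -2.51, -2.81, -2.49 and -2.41. All 24 genes named by size of change kept their call in each of the 9 fits that left out 1 library. They were chosen from these libraries for large changes without overlap, which favours that outcome. Of the 109 called genes named or in the lists 74 kept theirs.

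Growth factor and matrix genes formed 2 further lists. Of 19 growth factor genes 4 fell and 15 did not pass. Vegfa, the angiogenic factor that the RPE sends to the choroid, read 447, 263, 279.7, 196 and 247 CPM in NB and 109, 109, 105 and 84.3 CPM at 1d (log2 fold change -1.44 ± 0.21, adjusted p = 0.000727). Bmp2 fell, with 44.3 ± 6.31 CPM in NB and 20.5 ± 4.74 CPM at 1d (log2 fold change -1.12 ± 0.21, adjusted p = 0.00411) and Bdnf with 7.69 ± 2.20 CPM in NB and 3.18 ± 0.237 CPM at 1d (log2 fold change -1.11 ± 0.20, adjusted p = 0.00361), and Pgf had a log2 fold change of -0.97 ± 0.27, lost in 7 of 9 fits that left out 1 library (adjusted p up to 0.13). Without NB B3 7 of the list fell. Of 23 matrix genes 1 rose (Mmp3) and 3 fell; Timp1, which rose, was counted in the list of glial reactivity. Thbs1, an adhesive glycoprotein that limits angiogenesis, read 552, 379, 366, 216 and 283 CPM in NB and 128, 162, 104 and 129 CPM at 1d (log2 fold change -1.40 ± 0.24, adjusted p = 0.00219). Timp3, the metalloproteinase inhibitor of Bruch's membrane, fell, with 1909 ± 589 CPM in NB and 944 ± 132 CPM at 1d (log2 fold change -0.98 ± 0.23, adjusted p = 0.0188), a call lost without 1d 4 (adjusted p = 0.0614), and Ccn2 had a log2 fold change of -0.92 ± 0.19.

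Genes of fatty acid use moved little as a list, with 1 higher (Angptl4), 3 lower and 11 not passing of 15. Cpt1a, which admits fatty acids to mitochondria, and Ppargc1a, a coactivator of mitochondrial genes, were among the lower ones, with log2 fold changes of -0.62 ± 0.15 and -0.78 ± 0.20; their calls were lost in 4 and 7 of 9 such fits (adjusted p up to 0.0838 and 0.101), and without 1d 2 or 1d 4 the list held 1 fall. Abca1, a cholesterol exporter, fell, with 57.0 ± 16.9 CPM in NB and 31.4 ± 3.49 CPM at 1d (log2 fold change -0.81 ± 0.18, adjusted p = 0.0155; without 1d 4 adjusted p = 0.0509).

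Genes near human loci of age-related macular degeneration include several of those above. Of 20 tested 3 rose (C3, Cfi and Npl), 5 fell (among them Timp3, Vegfa, Abca1 and Col10a1) and 12 did not pass; the number falling was 3 without 1d 4.

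Other cell types gave few calls. Csf1r, the receptor that sustains microglia and macrophages, read 272, 215, 228, 160.2 and 194 CPM in NB and 68.8, 96.1, 56.6 and 73.4 CPM at 1d (log2 fold change -1.53 ± 0.19, adjusted p = 0.000152) and was the only 1 of 22 such genes to pass. The summed level of the 22 genes was 693 to 1374 CPM in NB and 709 to 1196 CPM at 1d. Of 13 endothelial genes Tek, Tie1 and Plvap fell (log2 fold changes -1.05 ± 0.30, -0.85 ± 0.20 and -0.71 ± 0.20), with 0 calls left without 1d 1, 1d 4, NB A1 or NB B1; edgeR called 0 and DESeq2 3 lower. The endothelial sum was 95.9 to 160.02 CPM in NB and 62.3 to 109.6 CPM at 1d, overlapping, and its part as choroid left in the samples was not tested.

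Interferon and antigen presentation genes were called widely in retina, where 24% of all genes tested were called higher. In RPE 1.77% of all genes tested were called higher, and the few calls in these lists were near that share. Of 33 interferon genes Irf8 alone passed, with 3.16 ± 0.102 CPM in NB and 4.57 ± 0.323 CPM at 1d (log2 fold change 0.47 ± 0.11, adjusted p = 0.0213; estimate 78.7%), a call lost without 1d 1 or 1d 4 (adjusted p up to 0.0589) and reversed by subtraction (log2 fold change -1.58). In retina 32 of 33 were called higher. Of 15 genes of MHC class I and the immunoproteasome limma called 0, with 0 at an unadjusted p under 0.05 and 0 by edgeR and DESeq2, and all 15 were called higher in retina. The RPE sum of the 33 interferon genes ran from 1714 to 5917 CPM in NB and from 2280 to 4331 CPM at 1d, so the spread within NB was wide. Whether the responses of the tissues differ was not tested. Of 15 NF-kappaB genes limma called 0 (2 at an unadjusted p under 0.05; 0 by edgeR and DESeq2). Of 21 immediate early genes Nr4a1 alone passed (5.26 ± 1.74 CPM in NB and 11.9 ± 1.69 CPM at 1d; log2 fold change 1.15 ± 0.21, adjusted p = 0.00346; estimate 181%; log2 fold change -0.48 after subtraction).

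Energy and housekeeping lists held no call. Over all 16712 genes 5.61% were called and 3613 had an unadjusted p under 0.05, so no call in lists of this size is near that share and does not show that they were stable. Limma called 0 of 26 genes of oxidative phosphorylation (1 at an unadjusted p under 0.05), 0 of 19 of glycolysis (4), 0 of 20 of cholesterol synthesis (1), 0 of 18 of the circadian clock (7) and 0 of 18 drivers of the cell cycle (2). EdgeR called 0 in each of these lists, and DESeq2 called 1 glycolysis, 1 clock and 1 cell cycle gene.

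**Figure D5:**
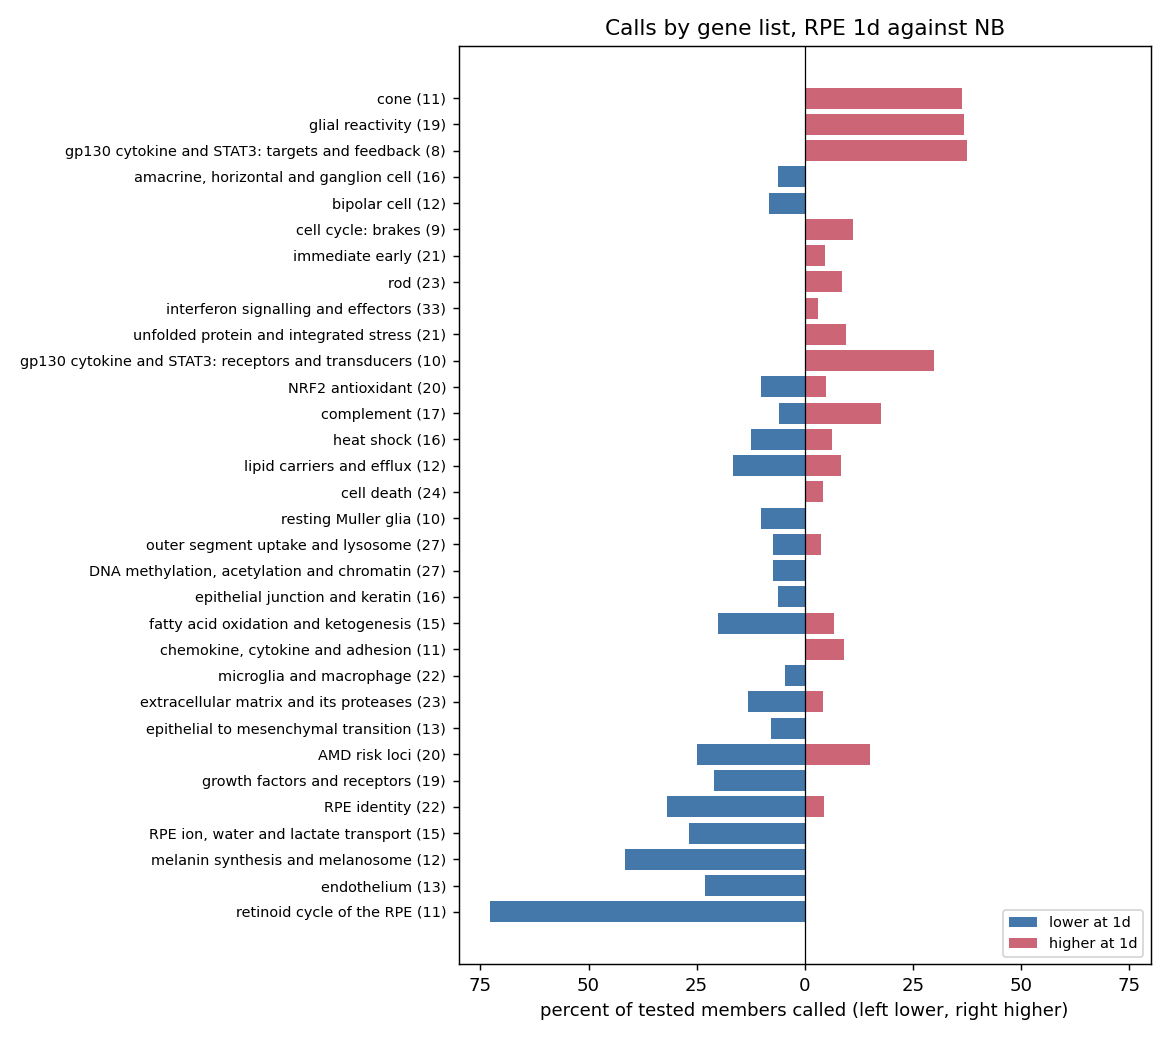
For each gene list with 5 or more tested members and at least 1 call, bars show the percent of tested members called lower (blue, left) or higher (red, right) at 1d, with the number tested in brackets and lists ordered by median log2 fold change. The retinoid cycle has the largest share lower (8 of 11); over all genes 3.84% were lower and 1.77% higher.

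At 3 days 27 genes were above NB and 3 below, and the genes that had risen at 1d took different courses. In the contrast of 3d with 1d, which shares the 1d libraries with the contrast above, 823 genes were higher and 277 lower at 3d (4.92% and 1.66% of genes, 6.58% in all); the counts were 261 and 102 without 3d 2, 337 and 110 without 1d 4, 452 and 146 without 3d 4, and 616 and 165 without 1d 2. Rpe65 was at 1960.2 ± 582 CPM at 3d (log2 fold change 2.19 ± 0.28, adjusted p = 0.000792, 3d minus 1d), against 2462 CPM in NB. Inpp5k was at 766 ± 183 CPM (log2 fold change 2.35 ± 0.22, adjusted p = 0.000246), Tshr at 98.5 ± 29.9 CPM (log2 fold change 1.87 ± 0.25, adjusted p = 0.000804), Vegfa at 267 ± 77.1 CPM (log2 fold change 1.35 ± 0.22, adjusted p = 0.0037) and Csf1r at 236 ± 59.7 CPM (log2 fold change 1.67 ± 0.20, adjusted p = 0.000425). Gm33489 stayed below NB, at 2.52 ± 0.388 CPM (log2 fold change -1.20 ± 0.23, adjusted p = 0.0496, 3d minus NB). Osmr was down to 199.8 ± 46.9 CPM (log2 fold change -1.60 ± 0.19, adjusted p = 0.000425), and Lcn2, Mmp3 and Socs3 to 4.77 ± 1.90 CPM, 1.27 ± 0.263 CPM and 10.5 ± 2.61 CPM, each lower than at 1d (adjusted p = 0.000934, 0.00347 and 0.000425). Serpina3n, at 1812 ± 588 CPM, was lower than at 1d (log2 fold change -1.34 ± 0.27, adjusted p = 0.0098) and still above NB (log2 fold change 2.50 ± 0.25, adjusted p = 0.00019). Serpine3 was at 119 ± 35.7 CPM and Lalba at 16.4 ± 6.03 CPM; neither differed from 1d beyond the threshold (adjusted p = 0.257 and 0.324), and both were above NB (log2 fold changes 4.87 and 3.07). Cfi and C4b were at 18.3 ± 6.10 CPM and 231 ± 66.9 CPM, with no passing difference from 1d (adjusted p = 0.311 and 0.91).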

How the data were processed

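RNA libraries of RPE (16) and retina (17) were used, and ATAC libraries were left out as outside this comparison. The tools named, per the submitters' processing notes, are STAR, Trimmomatic and edgeR, with the genome GRCm38; versions and the read counter are not given in the sources used here. The deposited signal values are CPM scaled by the authors to an effective library size, after filtering low genes by an unstated rule; they were checked to be whole multiples of the value of 1 read (within 0.01 of a read), from which reads were recovered. Deposited fold changes and p-values were not used. The 5 NB columns match the group, not single samples; A1 names the deeper one.

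Values were tested as log2(CPM + 0.5), which shrinks fold changes of low genes, with limma 3.58.1 in R 4.3.3: all 16 RPE libraries in 1 fit, trended moderated variance, Benjamini-Hochberg adjustment over 16712 genes (CPM of 1 or more in 3 or more libraries), threshold 0.05. Errors are SD for CPM (n = 5 NB, 4 1d, 4 3d) and SE for log2 fold changes; every adjusted p is limma's unless another tool is named. Nothing in the labels says that libraries of a group come from separate experiments beyond separate mice, so p-values measure the spread between these libraries. Retina (16926 genes) was fitted alone.

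Genes were named by a rule: up to 12 called genes in each direction with the largest fold change, no overlap, a mean of at least 5 CPM in the higher group and a retina-derived estimate under 25% there; up to 6 higher genes with a larger estimate; up to 6 members of each of 50 gene lists; Abca4 and Rdh8; further list members by role. Krt12 and a few further list members were named after their values were seen. Some genes that the rule names stay in the counts and are not reported here. The members and lists were chosen with earlier results of these data known. Alternatives were other pseudocounts and filters, TMM or library totals, edgeR 4.0.16, DESeq2 1.42.0, a 2-fold minimum, pairs of groups alone, a replicate block, covariates, subtraction of the estimate, and leaving out libraries. EdgeR and DESeq2 used the NB and 1d libraries alone.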

Additional observations from a re-analysis of the deposited data

Results flagged for a closer look

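In 8 of 60 groups of libraries examined, 1 library stood apart from its group by Dixon's criterion, applied to CPM. For independent, normally spread values about 1 in 20 groups would meet it. These groups share the same libraries and CPM may be skewed, so the 8 cannot be judged against that rate. NB A1, the library of the deeper set, was the highest NB library in 5 genes lower at 1d: Inpp5k at 1211 CPM against 809 in the next, Trhde at 90.4 against 45.6, Gm534 at 89.9 against 46.8, Nyap2 at 46.6 against 16.2 and 1110002E22Rik at 23.9 against 13.0. Gm534 also had 1 high library at 1d, 1d 2, at 14.8 CPM against 6.82 CPM. Cfi was highest among NB libraries in NB B4, at 2.23 CPM against 1.24 CPM, and Glycam1 lowest among 1d libraries in 1d 4, at 2.22 CPM against 12.2 CPM. Each of these genes kept its call in every fit that left out 1 library, an outcome favoured by their choice for large changes without overlap.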

How the results depend on the processing

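Of 109 called genes named or in the lists, 7 reversed under an alternative, and 74 kept their call in each of the 9 fits that left out 1 library. Of the 109 calls 27 were lost with edgeR, 26 with the NB and 1d libraries alone and 31 with a replicate block. Library totals lost 20, a 2-fold minimum 83, DESeq2 1 and TMM rescaling 0. The reversals came when the retina-derived estimate was subtracted, with log2 fold changes of -0.014 for Prss56, -0.75 for Edn2, -0.19 for Rbp3, -0.48 for Nr4a1, -0.17 for Cntfr, -1.58 for Irf8 and -2.84 for Gfap. With that subtraction 117 genes were higher and 3286 lower (3403 in all), and it removes more at 1d than in NB by its construction. Limma on the NB and 1d libraries alone called 168 higher and 369 lower (537). On those same libraries edgeR called 179 and 340 (519) and DESeq2 509 higher, so their counts differ from the main fit in libraries as well as tool. With all RPE libraries a 2-fold minimum gave 28 and 12 (40), and a fit with the surface epithelium sum 454 higher. The cause of these shifts was not tested. Leaving out 1 library gave 153 to 435 higher, 392 to 991 lower and 618 to 1426 in all. For 3d against 1d it gave 261 to 896 higher, 102 to 300 lower and 363 to 1196 in all. Same-numbered NB and 1d libraries share only a number (deviations correlated at 0.345, 0.172, 0.019 and -0.079); a replicate block gave 134 higher and 327 lower (461), against 144 and 308 (452) without it on the same libraries, and for 3d against 1d 189 and 41 (230) against 427 and 100 (527). As a percent of retina, the summed RPE level averaged 8.51 in NB for rod genes, 45.9 for the bipolar list and 35.4 for the amacrine list. The medians over single genes of the bipolar and amacrine lists were 4.99 and 5.72. At 1d the sums gave 22.5 for rod genes, 37.97 for the bipolar list and 28.8 for the amacrine list, and the medians were 7.44 and 7.76. What part of these levels was carried-over retinal RNA was not tested. At these depths 1 read is 0.0410 to 0.0910 CPM, so levels under 1 CPM rest on few reads.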

Other observations

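Smaller groups of genes held scattered calls, set here beside the 5.61% called over all genes tested. Of 16 heat shock genes Hspe1, a mitochondrial co-chaperone, rose (log2 fold change 0.30) and the chaperones Hspa8 (-0.40) and Hsp90aa1 (-0.50) fell, calls lost in 5, 8 and 6 of the 9 fits that left out 1 library. Of 12 lipid carrier and efflux genes Plin2 rose, while Abca1 and the phospholipid transfer protein gene Pltp (-0.76, lost in 8 of 9 such fits) fell. Tgfbr2, a receptor of TGF-beta, fell (-0.52) as the 1 call among 13 genes of epithelial to mesenchymal transition. Vcam1, an adhesion molecule, rose (1.01; lost in 2 of 9 such fits) with a retina-derived estimate of 43.7% and was the 1 call among 11 chemokine, cytokine and adhesion genes. Of 27 genes of DNA methylation, acetylation and chromatin, Tet1 (-1.02) and Kat2b (-0.52) fell, calls lost in 3 and 6 of 9 such fits. The calls in the transition, adhesion and chromatin lists were near the share over all genes. EdgeR called 0 in the heat shock, adhesion and chromatin lists. It called 1 lower in the transition list and 1 higher and 1 lower in the lipid list. DESeq2 called 2 chromatin genes lower and 1 adhesion gene higher, and 1 heat shock gene higher and 2 lower.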
